A study of Mus musculus with 285 samples.

Results

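Skeletal muscle of F2 mice was compared between animals with high and with low Cebpd, the gene of CCAAT/enhancer binding protein delta. Among the 285 mice of the series, the 160 with a mouse number from 91 to 270 in their label were ranked by their Cebpd value, the mean of 2 probes. The 40 mice at the top of that order are called Cebpd-high and the 40 at the bottom Cebpd-low. The other 80 mice in that number range entered neither group, and 125 mice with other numbers were kept apart as a separate set. Apart from the mouse number, and a mark (2) that ends the titles of mice 203 and 223, both Cebpd-high, the groups share what the labels state. Each animal was an F2 of C57BL/6J and C3H/HeJ, crossed in both directions, so that each carries its own mixture of both genomes. Each was fed chow with 4% fat to the age of 8 weeks, then 12 weeks of a Western diet (42% fat, 0.15% cholesterol), and was killed when 20 weeks old, after 12 hours without food. The labels name neither the muscle nor the sex, genotype, cross direction or time of killing of a mouse, and no animal was given a hormone. Each array set 1 mouse, labelled with Cy3, against what the labels call a pool of all mice, labelled with Cy5, and values below are log2 ratios of mouse over pool. Such ratios hold no level of one gene against another, so the tissue label could not be checked against the abundance of muscle markers.

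Glucocorticoids are adrenal steroids whose release rises with fasting and stress and follows the time of day. In muscle they act through the glucocorticoid receptor, which binds DNA near target genes, and shift the fibre towards releasing amino acids and sparing glucose. Cebpd is a transcription factor gene known to be induced by glucocorticoids and by cytokines such as interleukin 6, and FoxO factors raise further genes of protein breakdown when insulin signalling is low.

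The groups were chosen on Cebpd, and its values are therefore a description with no test. In the Cebpd-high mice the lowest, median and highest log2 ratios of Cebpd were 0.28, 0.46 and 0.84. In the Cebpd-low mice they were -1.29, -0.57 and -0.30. The border was not a gap in the data. The mouse just inside the high group had 0.280 and the next mouse 0.277, while the mouse just inside the low group had -0.3028 and the next one -0.2998. The amino acid transporter gene Slc7a8, picked together with Cebpd from earlier results, had -0.84, 0.59 and 1.52 (lowest, median, highest) in Cebpd-high mice and -1.81, -0.38 and 1.03 in Cebpd-low mice. Of the Cebpd-high mice, 37 of 40 lay above the Cebpd-low median of Slc7a8, and the groups overlapped. Its slope on Cebpd in the 125 mice with other numbers was 0.29 per log2 unit (limma, adjusted p = 0.0488). Slc7a8 was picked with earlier results of these data known, so this slope is no independent support. With runs of 20 mouse numbers as a block its difference was 0.35 (adjusted p = 0.167), and among numbers 181 to 270 it was 0.31 (0.417), so neither passed.

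The groups were not spread evenly along the mouse numbers. Numbers 111 to 150 held 15 Cebpd-low mice and 0 Cebpd-high mice among 31 animals. Numbers 91 to 180 held 14 Cebpd-high and 25 Cebpd-low mice, and numbers 181 to 270 held 26 and 15. The mean number was 205 ± 43.1 in Cebpd-high and 165 ± 58.9 in Cebpd-low mice (SD, n = 40 each; two-sided permutation test, p = 0.00092, adjusted over 3 array measures 0.00276). What the number stands for is not given in the labels. The 2 probes of Cebpd also differed, with the high-minus-low difference 1.89 in one and 0.386 in the other. Across the 160 mice they correlated with Pearson r = 0.285 and Spearman rho = 0.358 (permutation p = 0.00025 and 1e-05, the second the smallest the shuffles can give; adjusted over 3 relations 0.000375 and 1.5e-05; r = 0.311 without the 2 mice farthest from the median). Within numbers up to 212 r was 0.235 and from 213 on it was 0.441. The probe of smaller spread followed the first array-wide component, which held 17.4% of the variance (r = 0.795, rho = 0.762, both p = 1e-05, the smallest possible, adjusted 3e-05 and 1.5e-05; r = 0.772 without 2 mice; 0.817 up to number 212 and 0.601 from 213 on). The other probe did not follow it detectably (r = 0.0158, rho = 0.0715; permutation and adjusted p = 0.843 and 0.37; r = 0.0188 without 2 mice; -0.00173 and 0.0604 within the same ranges).

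**Figure D1:**
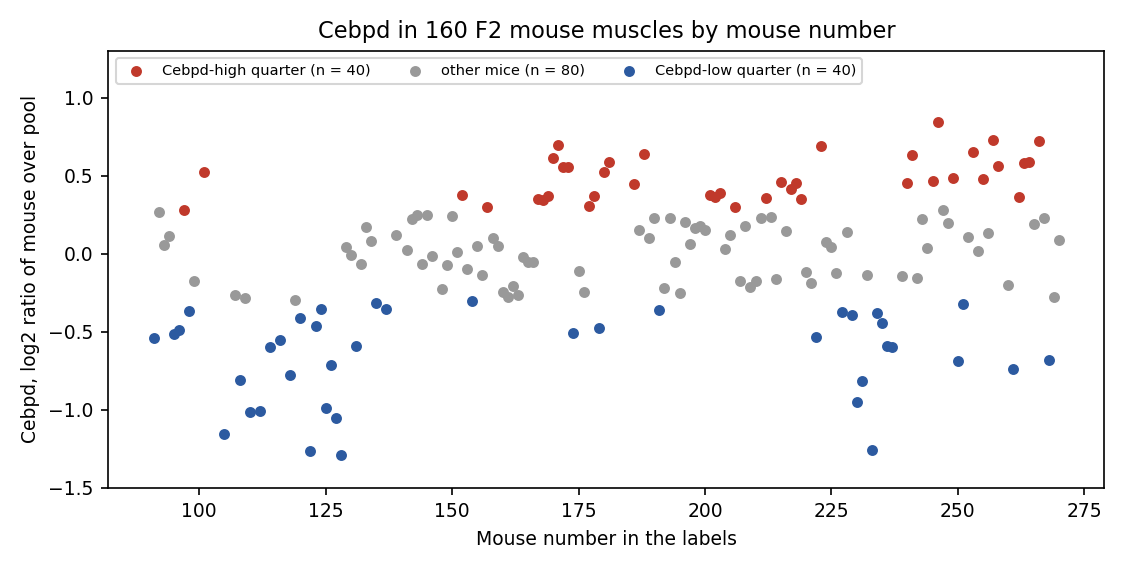
Each point is 1 of the 160 mice, with the mouse number on the horizontal axis and Cebpd as log2 ratio of mouse over pool on the vertical axis. Numbers 111 to 150 hold 15 Cebpd-low mice (blue) and 0 Cebpd-high mice (red), while both groups occur in the later numbers.

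The arrays also fell into 4 sets that lack values at the same probes, found after the data had been seen. The first set held 63 mice numbered 51 to 197 that share 17 missing probes, with 4 Cebpd-high and 17 Cebpd-low mice. The second held 77 mice numbered 54 to 212 that share 36, with 18 Cebpd-high and 9 Cebpd-low mice. The third held 65 mice numbered 213 to 362 (21 probes, 4 Cebpd-high and 7 Cebpd-low) and the fourth 80 mice numbered 217 to 359 (15 probes, 14 and 7). Both earlier sets thus end before number 213 and both later ones begin at or after it. The median Cebpd of the 4 sets was -0.25, 0.12, 0.15 and 0.39. What the sets stand for is not given in the labels, and their cause was not tested.

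The Y-linked gene Eif2s3y moved with these sets and with the groups. Its median log2 ratio was -5.07 in the first set, 0.91 in the second, -6.21 in the third and -0.09 in the fourth, and the ranges of the second and the fourth (0.38 to 1.84 and -0.49 to 0.21) did not overlap. It lay below -2 in 8 of 40 Cebpd-high mice and in 24 of 40 Cebpd-low mice, against 37 of the 80 other mice in the range. Its difference was 2.21 ± 0.58 (limma, adjusted p = 0.00403) and that of the Y-linked gene Kdm5d 1.38 ± 0.33 (0.0014). With the sets as a block these were 0.03 (0.934) and 0.14 (0.398), and neither gene passed in the 125 other mice (0.303 and 0.25). The labels give no sex. Since the groups differed in how many mice had a low Eif2s3y, differences with Cebpd and with sex cannot be fully told apart. With the sets as a block 1262 features were higher (5.87%) and 1889 lower (8.78%), and with Eif2s3y as covariate 1498 and 2181.

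The comparison asked which other genes differ with Cebpd, and whether those of the glucocorticoid and fasting responses do. Over 21511 named genes and unnamed probes, 1698 were higher (7.89%) and 2292 were lower (10.7%) in Cebpd-high mice (limma, adjusted p under 0.05). Most of them, higher and lower alike, were small shifts. At a difference of at least 1.5-fold there were 109 higher features (0.507%) and 12 lower ones (0.0558%). With runs of 20 mouse numbers as a block, 544 were higher (2.53%) and 334 lower (1.55%), and without numbers 111 to 150 there were 733 higher (3.41%) and 580 lower (2.70%). In the 125 mice with other numbers, 845 features rose with Cebpd (3.93%) and 831 fell (3.86%). Of the higher features 600 also rose there (2.79% of all features), which is 35.3% of the 1698 and 71.0% of the 845. Of the lower features 434 also fell there (2.02%), 18.9% of the 2292 and 52.2% of the 831, and 0 passed in opposite directions. With the sets of shared missing probes added to its block, the fit in the other mice gave 710 rising and 745 falling features. All 3 fits, plain, blocked and in the other mice, shared 303 higher (1.41%) and 97 lower features (0.451%). Of the 11621 named genes, 203 were among the first (1.75%) and 48 among the second (0.413%).

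**Figure D2:**
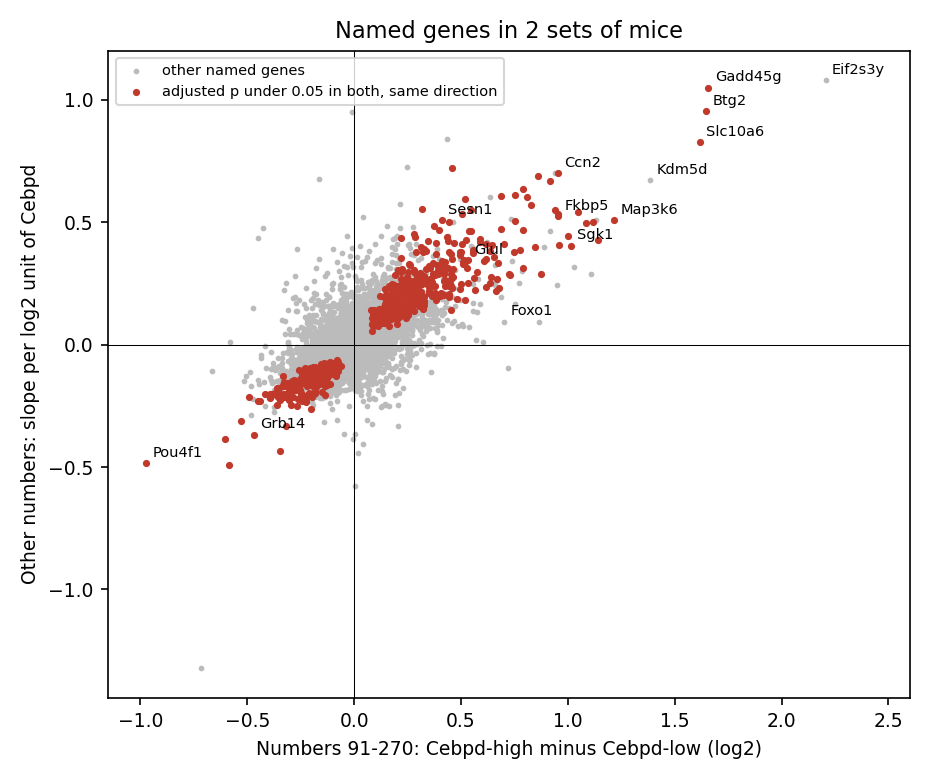
Each point is a named gene, with the Cebpd-high minus Cebpd-low difference in numbers 91 to 270 on the horizontal axis and its slope per log2 unit of Cebpd in the 125 other mice on the vertical axis. Red genes passed in both sets in one direction. Gadd45g, Btg2 and Slc10a6 lie far out at the upper right and Pou4f1 at the lower left, while Eif2s3y is grey because its slope in the other mice did not pass.

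Apart from the Y-linked Eif2s3y and Kdm5d, the largest rises among named genes were those of Gadd45g, Btg2 and Slc10a6. Gadd45g, a stress-induced growth arrest gene, had log2 ratios of -0.72, 0.43 and 1.29 (lowest, median, highest) in Cebpd-high mice and -2.53, -1.27 and 0.19 in Cebpd-low mice. All 40 Cebpd-high mice lay above the Cebpd-low median and 29 above the highest Cebpd-low mouse. The difference was 1.66 ± 0.12 (SE), or 3.16-fold (adjusted p = 7.99e-19), with 1.67 under the block and a slope of 1.05 in the other mice (adjusted p = 2.4e-10). It was 1.31 within the earlier and 1.91 within the later sets of shared missing probes. In groups chosen on the Cebpd probe of smaller spread alone it was 0.39, below the 0.87 of Btg2 and 1.12 of Slc10a6. The size and the lead of Gadd45g thus depend on the other Cebpd probe.

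Btg2, an antiproliferative gene of the early response, had -0.90, 0.64 and 1.97 in Cebpd-high and -2.03, -1.30 and 1.79 in Cebpd-low mice, a difference of 1.65 ± 0.18 (adjusted p = 1.91e-11). Slc10a6, which encodes a carrier of sulphated steroids, had -0.35, 0.84 and 2.19 in Cebpd-high and -2.10, -0.67 and 0.58 in Cebpd-low mice, a difference of 1.62 ± 0.15 (adjusted p = 5.91e-14). Every Cebpd-high mouse was above the Cebpd-low median of both genes, and 24 were above the highest Cebpd-low value of Slc10a6. Both also rose with Cebpd in the other mice, by 0.95 for Btg2 and 0.83 for Slc10a6 per log2 unit (adjusted p = 2.58e-05 and 1.89e-09).

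Next among the rising genes, by size of difference, were the kinase gene Map3k6 (1.22 ± 0.12, adjusted p = 1.3e-13), the ceramidase gene Acer2 (1.14 ± 0.15, 2.31e-08), the receptor gene Gprc5a (1.12 ± 0.14, 2.29e-09) and the cell cycle inhibitor gene Cdkn1a (1.05 ± 0.14, 1.33e-08). These 4 also passed in the other mice, with slopes from 0.43 to 0.54. The integrin gene Itgad (1.13 ± 0.26, adjusted p = 0.000965) and Rasd1, a Ras-related gene first known as induced by dexamethasone (1.11 ± 0.24, 0.000406), did not pass there (adjusted p = 0.218 and 0.518), and Itgad did not pass with Eif2s3y as covariate (0.62, 0.0656). The kinase gene Sik1 was higher by 1.08 ± 0.20 (adjusted p = 3.21e-05) and passed in the other mice, but not under the block (0.44, adjusted p = 0.154).

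**Figure D3:**
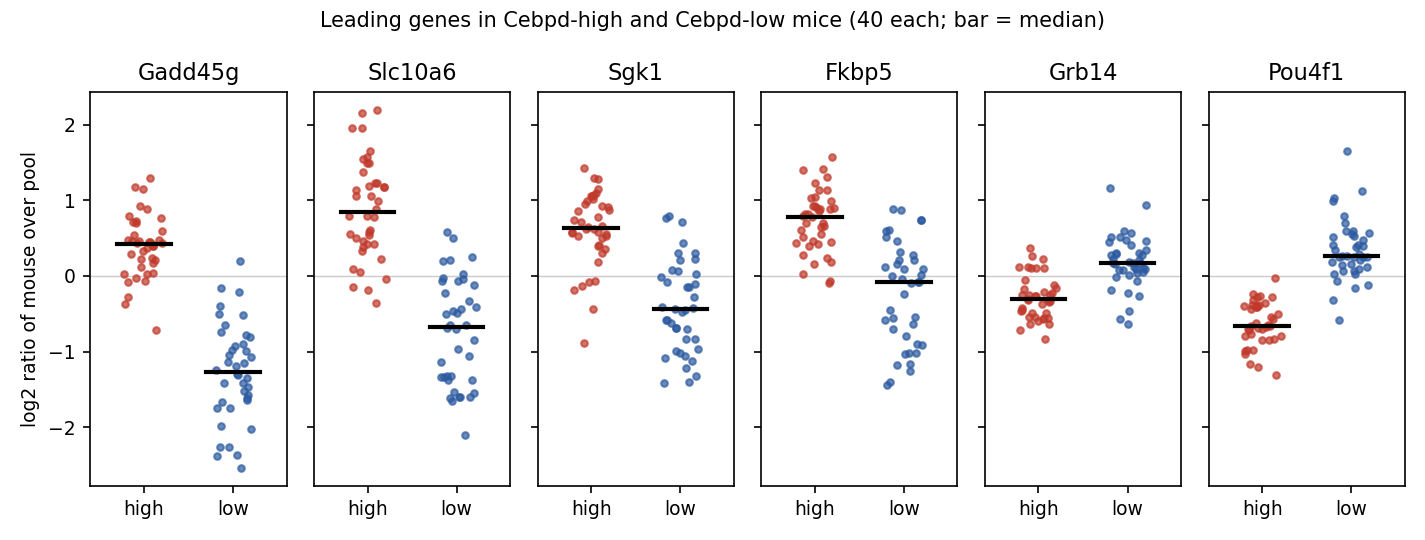
Points are single mice, 40 Cebpd-high on the left and 40 Cebpd-low on the right of each panel, with the log2 ratio of mouse over pool on the vertical axis and a bar at the median. The medians of Gadd45g are 0.43 and -1.27, and all Cebpd-high mice lie below the Cebpd-low median of Pou4f1.

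The promoters of the 3 autosomal genes with the largest rise are shown to let the leading genes be read at sequence level, with that of the kinase gene Sgk1 added after its values and its motif were seen. Each is the 250 bases before an annotated start on its own strand (RefSeq, GRCm38.p6), and capitals mark the motif named with it. The searched motifs were, on both strands, the glucocorticoid receptor hexamer AGAACA, its palindrome with TGTTCT after 3 bases, TGTTTAC for FoxO, TTGNNCAA for C/EBP, TTCNNNGAA for STAT, the E-box CACGTG, the cyclic AMP element TGACGTCA and TTATGTAA for Dbp. The palindrome includes the hexamer.
Sgk1: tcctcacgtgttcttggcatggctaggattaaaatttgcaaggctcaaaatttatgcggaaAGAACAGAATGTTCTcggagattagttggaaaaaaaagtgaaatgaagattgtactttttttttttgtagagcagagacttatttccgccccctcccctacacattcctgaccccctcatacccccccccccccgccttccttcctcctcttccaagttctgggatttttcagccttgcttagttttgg
Gadd45g: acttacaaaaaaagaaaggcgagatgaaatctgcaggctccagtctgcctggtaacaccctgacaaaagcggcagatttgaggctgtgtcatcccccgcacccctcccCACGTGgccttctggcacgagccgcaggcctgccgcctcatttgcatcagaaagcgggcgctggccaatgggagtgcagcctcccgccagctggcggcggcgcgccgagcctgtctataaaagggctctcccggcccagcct
Btg2: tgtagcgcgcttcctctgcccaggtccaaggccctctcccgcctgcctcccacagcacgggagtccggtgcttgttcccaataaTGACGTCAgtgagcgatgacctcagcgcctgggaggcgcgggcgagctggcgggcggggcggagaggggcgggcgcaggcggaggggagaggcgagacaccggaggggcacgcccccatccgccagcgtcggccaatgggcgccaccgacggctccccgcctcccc
Slc10a6: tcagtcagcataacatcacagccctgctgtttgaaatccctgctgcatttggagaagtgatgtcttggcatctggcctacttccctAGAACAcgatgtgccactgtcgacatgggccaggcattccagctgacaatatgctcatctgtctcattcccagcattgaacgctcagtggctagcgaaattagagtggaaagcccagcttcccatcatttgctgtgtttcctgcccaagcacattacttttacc
The Sgk1 stretch (chr10:21993640-21993889, plus strand, 1 of 6 starts) holds the receptor palindrome from -189 to -175, counted back from the start. Of 32851 promoters of this length, 3 hold it (0.00913%). The Gadd45g stretch (chr13:51846425-51846674, plus strand) holds the E-box at -142 to -137, which 6.02% of promoters hold. The Btg2 stretch (chr1:134079156-134079405, minus strand) holds the cyclic AMP element at -166 to -159 (1.55%), and the Slc10a6 stretch (chr5:103629404-103629653, minus strand) holds the receptor hexamer at -164 to -159 (16.1%). The other motifs searched have no match in the Gadd45g, Btg2 and Slc10a6 windows. The Sgk1 window also holds, unmarked near its far end, the E-box and, overlapping it, the receptor hexamer on the other strand. A match is a string of letters and no measured binding. Of the 115 genes named by the rule, 84 had a promoter in the table, and 12 of these held the receptor hexamer, 9 the E-box, 8 the STAT motif (7.02% of all promoters), 6 the C/EBP motif (5.65%), 1 the FoxO motif (3.17%), 1 the cyclic AMP element, 1 the palindrome and 0 the Dbp motif (0.819%).

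Known glucocorticoid targets that passed were all higher in Cebpd-high mice in the main comparison. Of 45 listed genes 35 were measured, and 20 were higher and 0 lower (limma; 23 and 1 at an unadjusted p under 0.05), with a median difference of 0.23 over the list against -0.0047 over all features. Under the block 15 were higher and 0 lower, and in the other mice 14 rose with Cebpd and 0 fell (20 and 3, and 17 and 0, unadjusted). With the first array-wide component as covariate 22 were higher and 2 lower. With Eif2s3y as covariate 19 were higher and 0 lower, and with the sets of shared missing probes as a block 17 were higher and 1, Cited2, was lower. With the Cebpd probe of smaller spread alone, 18 were higher and 5 lower. In that setting 6390 of the 21511 features were higher and 7851 lower, far more than in the main comparison. The list was drawn up with results of these data known. For this list and those below, the shares over all features were 7.89% higher and 10.7% lower in the main comparison. Under the block of numbers they were 2.53% and 1.55%, and in the other mice 3.93% and 3.86%.

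Sgk1, a kinase gene induced through the glucocorticoid receptor, had -0.89, 0.63 and 1.42 in Cebpd-high and -1.42, -0.44 and 0.80 in Cebpd-low mice, a difference of 1.01 ± 0.12 (adjusted p = 8.39e-10). Fkbp5, a co-chaperone of the receptor, had -0.09, 0.78 and 1.58 in Cebpd-high and -1.44, -0.08 and 0.88 in Cebpd-low mice, a difference of 0.95 ± 0.12 (adjusted p = 7.89e-09). For both genes 39 of 40 Cebpd-high mice lay above the Cebpd-low median, while the ranges of the groups overlapped. The block left 0.67 for Sgk1 and 0.56 for Fkbp5, and the slopes in the other mice were 0.40 and 0.53 (adjusted p = 0.00199 and 2.06e-05). The difference of Fkbp5 was 0.38 among numbers 181 to 270 and 1.24 among numbers 91 to 180. Within the later sets of shared missing probes it was 0.47 (adjusted p = 0.0582) and within the earlier ones 1.16 (9.73e-07), while Sgk1 passed in both (0.59 and 1.08, adjusted p = 0.0284 and 7.21e-06).

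Other targets rose less. The glutamine synthetase gene Glul, by which muscle exports nitrogen, was higher by 0.53 ± 0.06 (adjusted p = 1.08e-09), the insulin receptor substrate gene Irs2 by 0.50 ± 0.07 (3.03e-07) and the polyamine enzyme gene Odc1 by 0.69 ± 0.17 (0.00172). The call of Odc1 ended with Eif2s3y as covariate (0.16, 0.286) and with the sets as a block (0.07, 0.609). Hsd11b1, whose enzyme regenerates active glucocorticoid, was higher by 0.59, the growth inhibitor gene Mstn by 0.35 and the Krüppel-like factor genes Klf9 and Klf15 by 0.19 and 0.13. Under the block of numbers Hsd11b1 kept its call and the other 3 did not (Mstn 0.31, adjusted p = 0.14; Klf9 0.12, 0.134; Klf15 0.02, 0.898). Several defining targets did not pass. Tsc22d3, the leucine zipper gene used widely as a marker of receptor activity, differed by 0.12 ± 0.06 (adjusted p = 0.12), the pyruvate dehydrogenase kinase gene Pdk4 by 0.01 ± 0.06 (0.917), Cebpb by -0.02 ± 0.06 (0.85) and the receptor gene Nr3c1 by 0.24 ± 0.11 (0.0998). The atrophy ligase genes Fbxo32 and Trim63 and the metallothionein genes Mt1 and Mt2 have no named probe here.

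**Figure D4:**
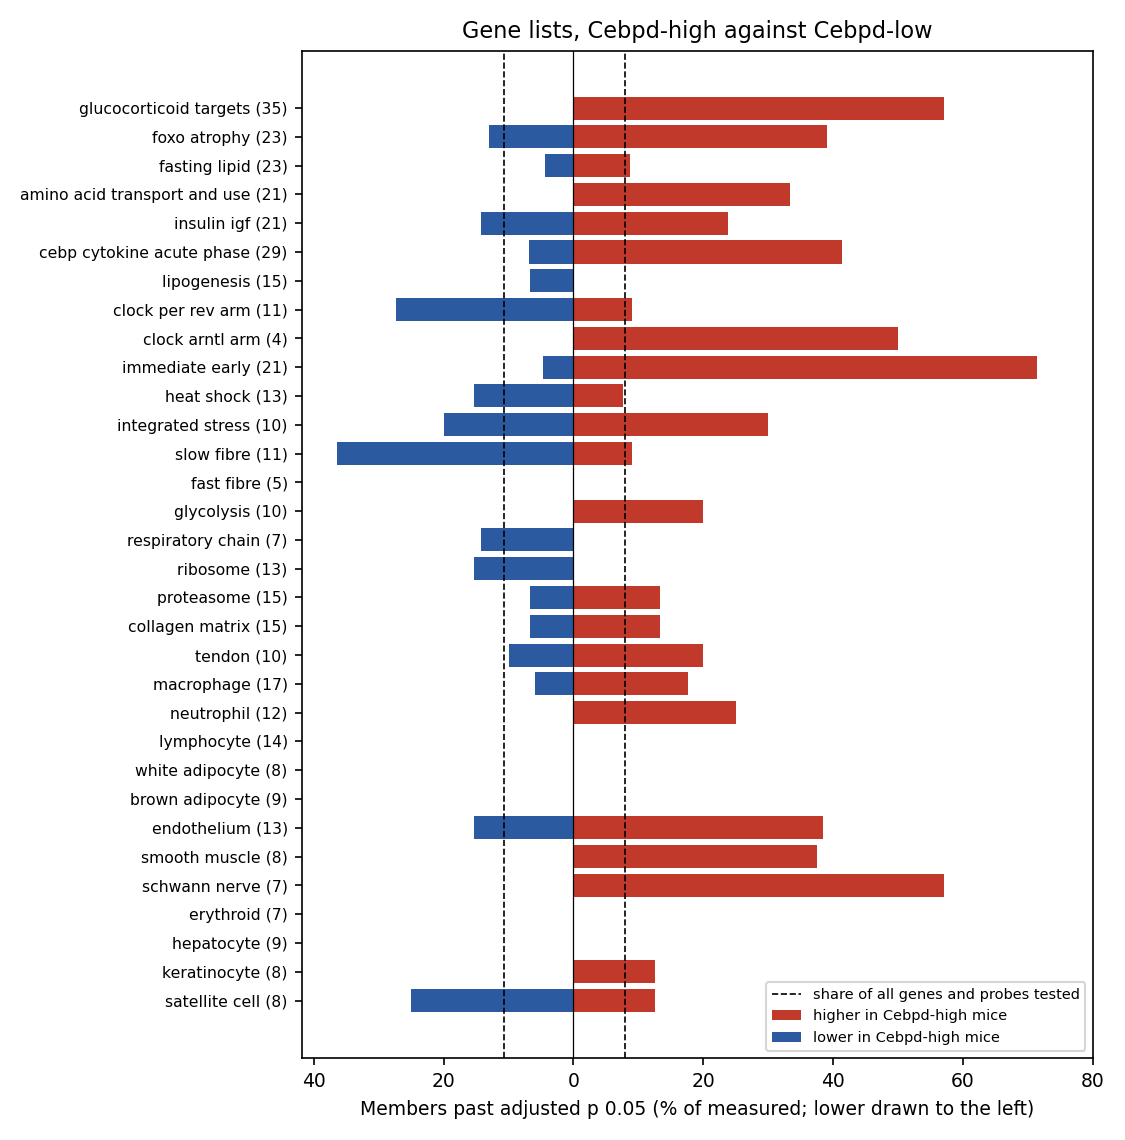
Bars give, for each gene list, the percentage of measured members (number in brackets) higher (red, to the right) and lower (blue, to the left) in Cebpd-high than in Cebpd-low mice at an adjusted p under 0.05. Dashed lines mark the shares over all features, 7.89% higher and 10.7% lower. Glucocorticoid targets and immediate early genes extend farthest to the right among lists of over 20 members.

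Genes of FoxO signalling and atrophy were mixed. Of 23 measured, 9 were higher and 3 lower (median 0.08), with 3 higher and 0 lower under the block and 9 rising and 0 falling in the other mice. Sesn1, a stress-induced inhibitor of mTORC1, was higher by 0.41 ± 0.08 (adjusted p = 0.000149) and the translation repressor gene Eif4ebp1 by 0.50 ± 0.09 (2.49e-05), and both passed under the block and in the other mice. Foxo1 itself had -0.65, 0.59 and 1.24 in Cebpd-high and -1.73, -0.13 and 0.97 in Cebpd-low mice, a difference of 0.70 ± 0.13 (adjusted p = 4.96e-05), but 0.21 under the block (0.373) and a slope of 0.09 in the other mice (0.489). Foxo3 was lower at -0.27 and Sesn3 at -0.22, and neither passed under the block (-0.02 and -0.20, adjusted p = 0.949 and 0.0656).

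Genes of fatty acid use in fasting stayed near the background. Of 23 measured, 2 were higher, Ppara by 0.37 and Ucp3 by 0.25, and 1 was lower, Acadm at -0.11. Under the block, and in the other mice, 0 passed in either direction (limma; Ppara 0.09 and -0.03, adjusted p = 0.791 and 0.857). At an unadjusted p under 0.05 there were 1 higher and 2 lower under the block, and 1 rising and 0 falling in the other mice. Of 15 lipogenic genes 0 were higher and 1 was lower, the carboxylase gene Acaca at -0.20, whose probes differed in sign.

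Among genes of amino acid transport and use other than Slc7a8, 7 of 21 were higher and 0 lower, with 3 under the block and 5 in the other mice. Besides Glul and Odc1 they included the polyamine oxidase gene Smox (0.56 ± 0.15, adjusted p = 0.00568) and the large neutral transporter genes Slc7a5 (0.33) and Slc43a1 (0.52). Slc3a2, the partner of Slc7a5, was higher by 0.29. Smox did not pass in the other mice (0.693) or under the block (0.0552), and was 0.06 with Eif2s3y as covariate (0.694) and 0.01 with the sets as a block (0.95). Under the block of numbers Slc43a1 passed (0.00774), and Slc7a5 and Slc3a2 did not (0.177 and 0.19). Of 21 insulin and IGF genes 5 were higher and 3 lower. Grb14, an adaptor that inhibits the insulin receptor, had -0.84, -0.31 and 0.37 in Cebpd-high and -0.64, 0.17 and 1.16 in Cebpd-low mice. That is a difference of -0.47 ± 0.07 (adjusted p = 6.45e-07), with 3 of 40 Cebpd-high mice above the Cebpd-low median and a slope of -0.37 in the other mice (0.00232). The glucose transporter gene Slc2a1 was higher by 0.36 ± 0.07 (adjusted p = 4.46e-05).

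Cytokine and acute phase genes linked to C/EBP factors had 12 of 29 members higher and 2 lower, with 9 and 0 under the block and 10 and 1 in the other mice. Nfkbia, the inhibitor of NF-kappaB and itself a glucocorticoid target, had -0.45, 0.47 and 1.31 in Cebpd-high and -1.47, -0.54 and 0.12 in Cebpd-low mice, a difference of 0.94 ± 0.09 (adjusted p = 3.47e-13). Its 40 Cebpd-high mice all lay above the Cebpd-low median, and 28 above the highest Cebpd-low mouse. In groups chosen on the Cebpd probe of smaller spread alone the difference of Nfkbia was 0.23. The interleukin 1 receptor gene Il1r1 was higher by 0.96 ± 0.12 (adjusted p = 7.44e-09) and the kinase gene Pim3 by 0.45 ± 0.05 (1.01e-10), and both passed in the other mice. Haptoglobin, Hp, was higher by 0.92 ± 0.23 (0.00298) and passed neither there (0.246) nor with the sets of shared missing probes as a block (0.61, 0.0746). Socs2 was lower at -0.28 and Icam1 at -0.27, and neither passed under the block of numbers (0.347 and 0.902).

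Immediate early genes had 15 of 21 members higher and 1 lower (median 0.37), with 11 and 1 under the block, 12 and 2 in the other mice and 15 and 1 with the sets of shared missing probes as a block. Ccn2, a matricellular growth factor gene, had -0.65, 0.44 and 1.04 in Cebpd-high and -1.34, -0.59 and 0.56 in Cebpd-low mice, a difference of 0.95 ± 0.10 (adjusted p = 1.15e-11). Zfp36, whose product destabilises cytokine mRNA, was higher by 0.78 ± 0.08 (3.32e-13) and the transcription factor gene Egr2 by 0.81 ± 0.11 (1.14e-07). The orphan receptor gene Nr4a1 was higher by 0.58 and Fos by 0.22, while Jun, Egr1, Egr3, Atf3 and Nr4a3 did not pass and Maff was lower at -0.39. With the Cebpd probe of smaller spread alone, 9 members were higher and 3 lower, where 6390 of the 21511 features were higher and 7851 lower.

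The clock genes gave a mixed picture. Arntl, the core activator, was higher by 0.37 ± 0.10 (adjusted p = 0.00329) and Nfil3 by 0.73 ± 0.09 (6.56e-09). Bhlhe40 (-0.43 ± 0.09, 0.000437), the Rev-erb gene Nr1d2 (-0.21 ± 0.05, 0.000736) and Dbp (-0.15 ± 0.05, 0.0252) were lower, whereas Per1, which glucocorticoids also induce, was higher by 0.24 ± 0.06 (0.00288). Per2, Per3, Cry1 and Nr1d1 did not pass. In the other mice Nfil3, Nr1d2, Dbp and Per1 passed in the same direction, and Arntl and Bhlhe40 did not.

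The falling genes had smaller differences. Pou4f1, a POU-domain transcription factor gene known from sensory neurons, had -1.30, -0.66 and -0.03 in Cebpd-high and -0.58, 0.27 and 1.65 in Cebpd-low mice, a difference of -0.97 ± 0.08 (adjusted p = 1.03e-16). All 40 Cebpd-high mice lay below the Cebpd-low median, and the slope in the other mice was -0.48 (9.28e-05). In groups chosen on the Cebpd probe of smaller spread alone the difference of Pou4f1 was -0.42. Taf7l2, a TAF7-like gene, was lower at -0.53 ± 0.06 (6.49e-11) and G0s2, an inhibitor of triglyceride lipase, at -0.58 ± 0.12 (0.000253), and both passed in the other mice. St8sia4 (-0.66 ± 0.11), Bdnf (-0.49 ± 0.09), Socs1 (-0.48 ± 0.10) and Tgtp1 (-0.48 ± 0.16) passed in the main comparison and not in the other mice. Cpeb4 was lower at -0.51 ± 0.12, but at -0.10 under the block (adjusted p = 0.705). Ddit3, the stress factor gene CHOP, was lower at -0.32 ± 0.05 (3.16e-07) and passed in the other mice.

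**Figure D5:**
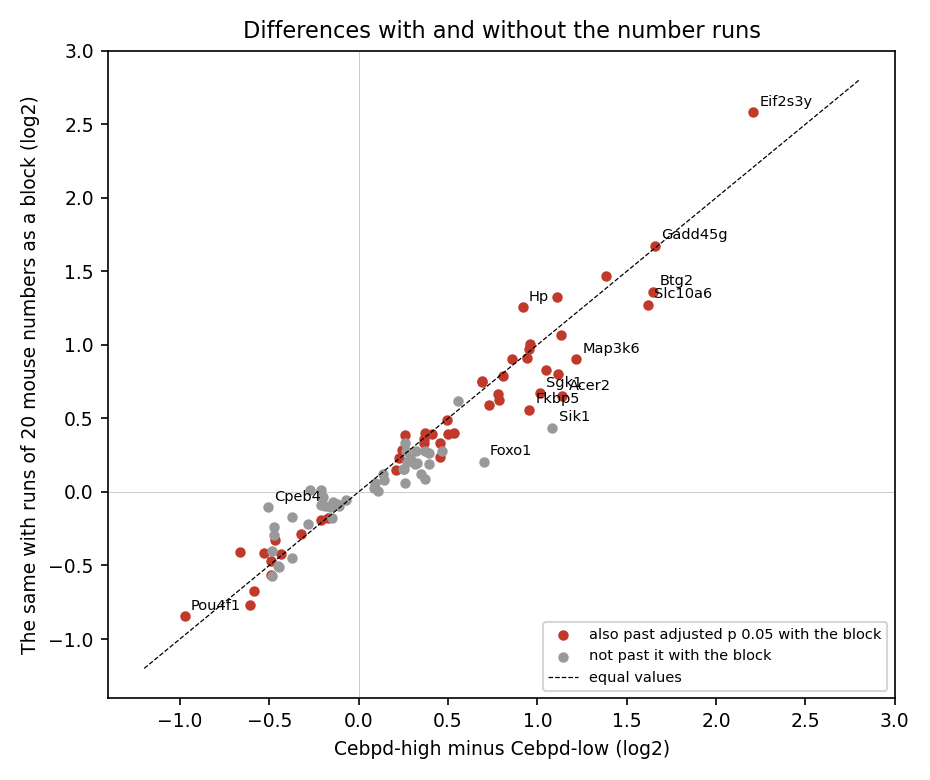
Each point is a named gene that passed in the main comparison, with its Cebpd-high minus Cebpd-low difference on the horizontal axis and the same difference with runs of 20 mouse numbers as a block on the vertical axis. Gadd45g lies on the dashed line of equal values (1.66 and 1.67), while Foxo1, Sik1 and Cpeb4 move towards 0 and turn grey.

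Markers of other cells and fibre types moved with the groups in part. In whole muscle, more cells of a type and more RNA per cell cannot be told apart. Over all features 7.89% were higher and 10.7% lower in the main comparison. These shares were 2.53% and 1.55% under the block of numbers, and 3.93% and 3.86% in the other mice. With the sets of shared missing probes as a block they were 5.87% and 8.78%. Slow fibre genes were lower for 4 of 11 members and higher for 1, Myl2 at -0.48 ± 0.15 (adjusted p = 0.0172), Tnnt1 at -0.45 and Myh7 at -0.37, with 0 passing under the block or in the other mice (limma; Myl2 adjusted p = 0.0712 and 0.454; unadjusted, 1 higher and 7 lower under the block and 0 in the other mice). With the sets of shared missing probes as a block, and with Eif2s3y as covariate, 1 was higher and 0 lower, and Myl2 was -0.07 (adjusted p = 0.76) and -0.13 (0.558). The mean over that list ran from -1.73 to 0.78 in Cebpd-high mice and from -0.72 to 0.84 in Cebpd-low mice. Neutrophil genes were higher for 3 of 12 members, S100a9 by 0.79 ± 0.15, S100a8 by 0.37 and Lcn2, which is also in the glucocorticoid and cytokine lists, by 0.21, and the list mean ran from -0.16 to 0.24 in Cebpd-high and from -0.28 to 0.15 in Cebpd-low mice. The median difference over the neutrophil list was 0.01. Its members were higher for 3 and lower for 0 under the block of numbers, and 1 rose and 0 fell in the other mice (limma; unadjusted there, 1 and 2). Of 17 macrophage genes 3 were higher and 1 lower (list mean -0.57 to 0.50 and -0.86 to 0.56), with 9 and 1 at an unadjusted p under 0.05, 14 and 0 so under the block of numbers, and 8 and 0 in the other mice. Past the adjusted threshold 2 macrophage genes were higher and 0 lower under that block, 4 and 0 in the other mice, and 1 and 1 with the sets as a block. Of 13 endothelial genes 5 were higher and 2 lower (list mean -0.27 to 0.33 and -0.44 to 0.40). Smooth muscle genes were higher for 3 of 8 members and Schwann cell genes for 4 of 7, Egr2 of the early genes among them. Under the block of numbers, and in the other mice, 0 smooth muscle genes passed (limma; unadjusted, 1 higher and 1 lower, and 2 and 1), 1 Schwann cell gene was higher in each, and 1 endothelial gene was higher, with 0 and 1 lower. Lymphocyte, white adipocyte, brown adipocyte, erythroid and hepatocyte lists had 0 members past the threshold (limma) of 14, 8, 9, 7 and 9 measured, and 1, 0, 1, 0 and 0 at an unadjusted p under 0.05. The mean of the hepatocyte list reached 4.28 in a Cebpd-high mouse and 2.12 in a Cebpd-low mouse, with medians of -0.60 and -0.41. The part of these cells in the differences above was not tested, apart from a fit with the slow troponin gene Tnnt1 as covariate, in which 18 of 35 glucocorticoid targets were higher and 0 lower.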

How the data were processed

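Muscle RNA of 285 F2 mice was hybridised on 2-colour arrays against what the labels call a pool of all mice. Whether 1 preparation of the pool served all arrays was not tested. The authors deposited one value per probe and array, read here as a log10 ratio of mouse over pool. The base and the sign are inferred, not stated. Read this way the mean ratio of Eif2s3y is 0.796 (23.2 with the sign turned) and of Kdm5d 0.942 (3.43). A turned sign would swap the names of the groups and of high and low, leaving each difference as it is, and base 2 would shrink every log2 value by the same factor. Array medians from -0.0222 to 0.0173 show centring before deposit; its method, scanner signals and background are not given in the sources used here. Correlations between the 80 arrays ran from -0.546 to 0.731 (median 0.0821), and 2.37% of pairs lay below -0.3. The number of arrays limits the precision.

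Of 23560 probes, 23510 had a value on at least 80% of arrays. Probes with 1 symbol (13653, against 48 with several and 9859 with none) were averaged per gene after updating 12650 symbols through Entrez identifiers, which gave 11622 named genes and 9890 unnamed probes. Values were converted to log2. The array spread (SD) ranged from 0.175 to 0.605. limma 3.58.1 in R 4.3.3 compared the 40 Cebpd-high with the 40 Cebpd-low mice (two-sided, Benjamini-Hochberg over 21511 features other than Cebpd). A limma slope on Cebpd was fitted in the 125 other mice with runs 51 to 90, 271 to 310 and 311 to 362 as a block. Permutation tests used 100000 shuffles. The fits were tested on simulated data. The members and gene lists were chosen with earlier results of these data known. Named were Cebpd and Slc7a8, the 12 named genes with the largest difference in each direction, up to 4 passing members of each list, or 2 of the lowest p where none passed, and 11 defining genes. Alternatives covered group size, the mouse number, array scale, probes, filters and covariates, and, added after the data were seen, the 4 sets of shared missing probes. Each mouse is a separate animal.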

Additional observations from a re-analysis of the deposited data

Results flagged for a closer look

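For 11 of the 115 genes named by the rule the Cebpd-high minus Cebpd-low difference changed between numbers 181 to 270 and 91 to 180. By this limma interaction 2621 of 21511 features passed (12.2%), and 1327 of all 11621 named genes. With the product of group and mouse number as a continuous term in place of these ranges, 1 feature passed. With the split between numbers 212 and 213, chosen after the data were seen, 0 passed (3559 at an unadjusted p under 0.05). The values are the later difference minus the earlier one, in log2 units. It was -0.8636 for Fkbp5 (adjusted p = 0.00549), with 0.38 late and 1.24 early, and -0.6488 for Ucp3 (0.00941), with -0.06 late and 0.59 early. It was 0.821 for Cpeb4 (0.00704), 0.4769 for Lyz2 (0.00737), 0.3894 for Per1 (0.0135), 0.3778 for Acaca (0.0153), 0.571 for Nfkbia (0.0261), 0.7158 for Egr2 (0.0261), 0.5235 for Hsp90aa1 (0.0362) and 0.4091 for Grb14 (0.0424). It was -0.8458 for Slc7a8 (0.0267), with 0.31 late and 1.16 early. Nfkbia and Egr2 were higher in Cebpd-high mice in both ranges, by 1.19 and 1.13 late and by 0.62 and 0.41 early.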

How the results depend on the processing

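No paired analysis was possible because the mouse numbers name single animals and pair none of them. Counts moved by over 1.5 times as follows. The 1698 higher features became 544 with runs of 20 numbers as a block, 809 with a spline of the number, 329 in numbers 181 to 270 only and 642 where the most variable probe stood for its gene. The 2292 lower ones became 334, 464, 140 and 552 in those settings, 924 with mice ranked within runs and 1514 with the first component as covariate. Chosen after seeing the data, the Cebpd probe of smaller spread alone gave 6390 and 7851, and leaving out numbers 111 to 150 gave 733 and 580, ranking within the sets of shared missing probes 743 and 1026, and the later sets alone 303 and 84. Outside numbers 91 to 270 the 845 rising and 831 falling features became 3372 and 5164 without the block, 116 and 97 in numbers above 310 alone, 219 and 97 with the most variable probe, and 448 falling with arrays scaled to one SD. The 1034 shared features became 406 with the block, 553 with the spline, 204 in numbers 181 to 270, 471 with the most variable probe, 681 with the first component 533 without numbers 111 to 150, 484 ranked within the sets and 207 in the later sets. Changes to the outside fit gave 2181 (no block), 145 (numbers above 310) and 265 (most variable probe). The 2621 features differing along the numbers became 1 with a continuous term and 0 with the split at number 213.

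Of 113 genes named by the rule and tested, 97 passed, against 7.89% higher and 10.7% lower over all features. The rule picked mainly passing genes, so that count is largely set by the choice. Of the 97, 20 passed in the same direction in every alternative, among them Gadd45g, Btg2, Slc10a6, Sgk1, Glul, Irs2, Sesn1, Il1r1, Zfp36, Ccn2 and Pou4f1. Signs turned with the Cebpd probe of smaller spread for Zfp503 (0.0852), G0s2 (0.0734), Hic1 (0.03), Acadm (0.0103), Kdr (0.0801), Calcr (0.2536) and Pax7 (0.0125). They turned in numbers 181 to 270 for Cpeb4 (0.0059), Ucp3 (-0.0553), Hsp90aa1 (0.0693) and Lyz2 (0.0253), in numbers 91 to 180 for Per1 (-0.0239) and with the most variable probe for Acaca (0.0161). Hsp90aa1 and Calcr turned when ranked within runs (0.0394 and 0.0072), Hsp90aa1 and Lyz2 under the block (0.0159 and 0.0147) and Hsp90aa1 with the spline (0.007). Ranked within the sets, signs turned for Eif2s3y (-0.0975), Kdm5d (-0.1152), Smox (-0.1426), Vldlr (-0.1364) and Tnnt1 (0.0167). In the earlier sets they turned for Eif2s3y (-0.1925), Cd163 (-0.1023) and Csf1r (-0.0219). In the later sets they turned for Myl2 (0.0382), Odc1 (-0.0265), Smox (-0.2019), Hsp90aa1 (0.1995), Vldlr (-0.1849), Atf5 (0.0124), Cebpg (-0.0083), Tnnc1 (0.0288), Tnnt1 (0.0483), Psmb3 (-0.0356), Loxl1 (0.0156) and Lyz2 (0.0584). The cause was not tested. Signal over background is unknown.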

Other observations

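Genes of tendon and matrix, glycolysis, protein handling and stem cells were measured too. The lubricin gene Prg4 of joint and tendon surfaces had -1.63, 0.21 and 1.25 (lowest, median, highest) in Cebpd-high and -1.89, -0.72 and 0.47 in Cebpd-low mice, a difference of 0.86 ± 0.13 (limma, adjusted p = 3.62e-07), and it passed in the other mice (slope 0.69, 0.0039). Of 10 tendon genes 2 were higher and 1 lower, and of 15 matrix genes 2 were higher and 1 lower. Pfkfb3, whose enzyme makes the activator of phosphofructokinase, was higher by 0.69 ± 0.16 (0.00143), and Hk2 by 0.27 (0.15 with the sets of shared missing probes as a block, adjusted p = 0.269), while the other 8 of 10 glycolysis genes did not pass. The satellite cell factor gene Pax7 was at -0.19 ± 0.04 (0.00123) and did not pass in the other mice (0.905). Ribosomal genes were lower for 2 of 13 members and higher for 0, and proteasome genes higher for 2 and lower for 1 of 15. Over all features 7.89% were higher and 10.7% lower, and whether any of these lists departs from those shares was not tested.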
